A study of Homo sapiens with 2 samples.

Results

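The 5′ untranslated region (5′UTR) lies between the cap of an mRNA and its start codon, and the clusters described here are those that the authors labelled 5′UTR and nothing else. They were chosen by that label alone, with no use of tag numbers, and 1067 of the 233546 deposited clusters carried it. HITS-CLIP was carried out for Flag-tagged RBM47, an RNA-binding protein, in MDA231-BrM2a cells, which were derived from the MDA-MB-231 line of breast cancer and metastasise to the brain. The protein came from a doxycycline-inducible transgene, switched on for 3 days with 1 ng/ml of the drug, and the cells were then crosslinked with ultraviolet light. Both libraries, replicates 1 and 2, belong to this 1 group, and no control library was analysed here. A tag is a unique read, a cluster is a group of overlapping tags, and the tag count of a cluster reflects both how much of the RNA was present and how much of it was bound, which cannot be told apart.

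Ribosomes load at the cap and scan the 5′UTR for the start codon, so this region is known for elements that set how often an mRNA is translated. These include upstream open reading frames, internal ribosome entry sites, iron-responsive hairpins and the oligopyrimidine tract at the cap of ribosomal protein mRNAs. Most 5′UTRs are short and rich in G and C, but a minority are long, and a 5′UTR can differ between transcripts of 1 gene because of alternative start sites and first exons.

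The 1067 clusters were 0.457% of all deposited clusters, with a Wilson 95% interval of 0.430% to 0.485% that covers counting error only. They held 3656 of the 999047 replicate 1 tags and 12053 of the 3489697 replicate 2 tags, or 0.356% ± 0.0145 of a replicate's tags (mean ± SD, n = 2). The median 5′UTR cluster held 8 tags by the authors' total and was 84 nt long, with lengths from 27 to 639 nt. At the lower end, 211 clusters sat at the minimum of 5 tags that every listed cluster had. In replicate 1, 338 of the clusters rested on a single tag, whereas the median in replicate 2 was 6 tags. Single 5′UTR clusters were therefore measured coarsely in the smaller library, and 437 clusters in 247 genes reached 10 tags, 80 clusters in 51 genes reached 30 tags, and 13 clusters in 6 genes reached 100 tags.

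Tags were concentrated in a few transcripts. The 12 largest clusters held 16.4% of all 5′UTR tags, and BIRC3 and ZC3H11A alone held 13.7%. BIRC3, also called cIAP2, is an inhibitor of apoptosis and a ubiquitin ligase of tumour necrosis factor receptor signalling. It had 7 5′UTR clusters with 241 replicate 1 tags and 1017 replicate 2 tags, which was 26.6 ± 3.55 tags per 100000 tags of a replicate (mean ± SD, n = 2). These clusters followed each other along 2552 nt of chromosome 11, from 101699684 to 101700323 for the largest, with gaps small enough to join all 7 into 1 stretch when gaps of at most 50 nt were bridged. No other stretch of 5′UTR clusters held as many tags.

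The largest BIRC3 cluster had 78 tags in replicate 1 and 282 in replicate 2. The next, from 101698739 to 101699376, had 65 and 294 tags. A short cluster of 74 nt between 101698647 and 101698721 had 16 and 75 tags, and with 1230 tags per 1000 nt it was the densest of the 5′UTR clusters with at least 50 tags. The lowest of the 7 clusters had 28 tags in all, so no part of the stretch was close to the 5-tag minimum. In BIRC3 the 5′UTR clusters held 61.5% of the gene's 2045 tags, against 25.4% in 7 CDS clusters and 1.03% in 2 3′UTR clusters. The 5′UTR share was 60.1% in replicate 1 and 61.9% in replicate 2.

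BIRC2, the paralogue cIAP1 that neighbours BIRC3 on chromosome 11, also carried much of its tags in the 5′UTR. It had 8 clusters with 46 tags in replicate 1 and 179 in replicate 2, between 101724523 and 101725709. That was 43.2% of the 491 tags of the gene, with 47.4% in replicate 1 and 43.8% in replicate 2. Relative to cluster length, BIRC2 5′UTR clusters held 208 tags per 1000 nt and its CDS clusters 199, whereas BIRC3 5′UTR clusters held 500 and its CDS clusters 373. Both mRNAs have long reference 5′UTRs, with 2761 nt in BIRC3 and 1420 nt in BIRC2 for the canonical GENCODE transcript.

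ZC3H11A, a CCCH zinc finger protein linked to mRNA export, held the single 5′UTR cluster with the most tags. This cluster, on chromosome 1 from 202037734 to 202038339, had 96 tags in replicate 1 and 325 in replicate 2, or 9.46 ± 0.209 tags per 100000 (mean ± SD, n = 2). A second cluster upstream of it, from 202036788 to 202037346, had 52 and 205 tags. In total ZC3H11A had 10 5′UTR clusters with 870 tags, 40.0% of its 2175 tags, with 39.3% in replicate 1 and 40.3% in replicate 2. Another gene overlaps here: ZBED6, a gene whose product is a zinc finger protein, had 6 clusters on the same strand between 202033106 and 202035205, with 463 tags, and was looked up after the ZC3H11A values were seen. Of the ZC3H11A 5′UTR clusters, 2 lay upstream of the ZBED6 clusters and 8, with 856 tags, lay downstream of them. How the tags divide between transcripts of these genes cannot be told apart from the table.

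**Figure D1:**
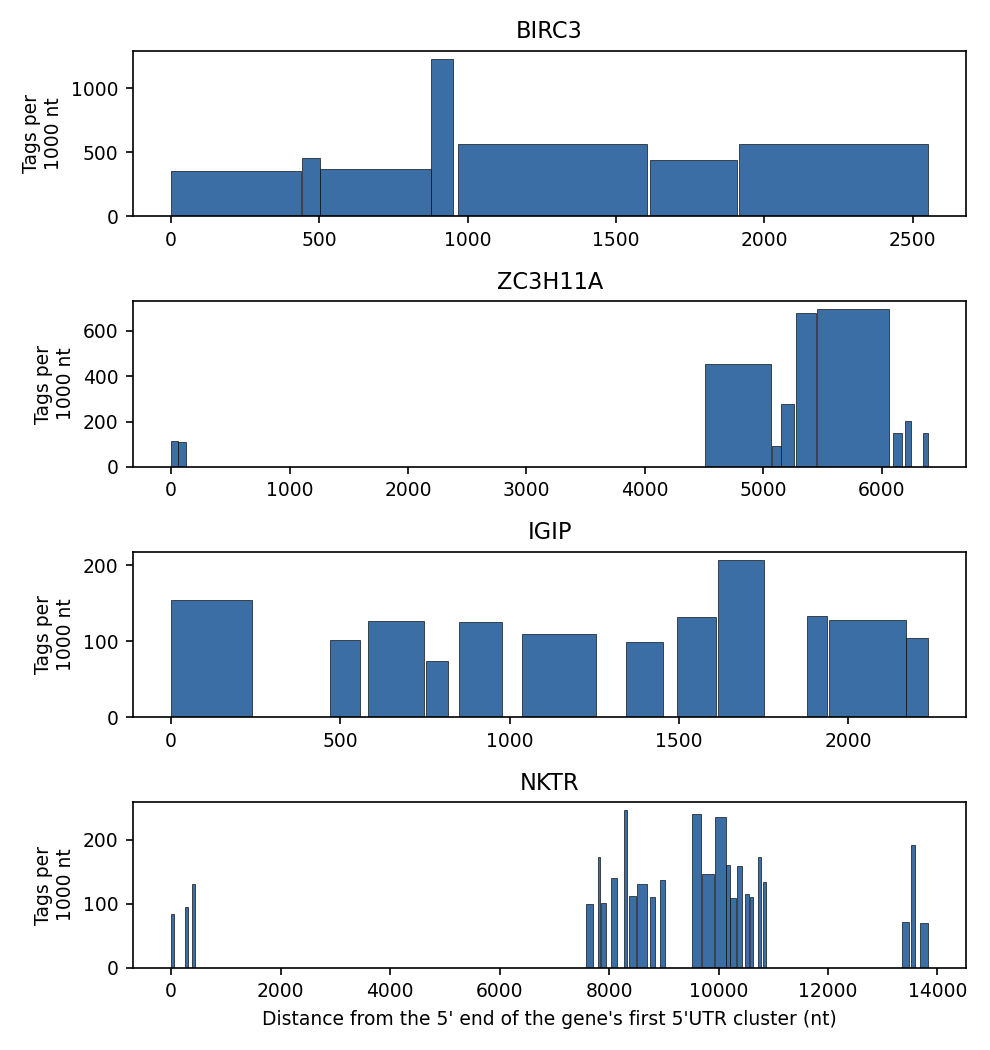
Tag density of 5′UTR clusters along 4 genes. Each bar is 1 cluster, its width the cluster length and its height the tags per 1000 nt by the authors' total, and the horizontal axis is the distance in nt along the genome, in the direction of transcription, from the gene's first 5′UTR cluster. BIRC3 is covered almost without gaps and reaches 1230, ZC3H11A has a dense block of up to 696 far from its first clusters, and the 12 IGIP and 25 NKTR clusters stay at or below 246.

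The other clusters among the 12 with the most tags belonged to PTP4A1, ZMYM2, EXT1 and the mitochondrial chromosome. PTP4A1, a protein tyrosine phosphatase, had 32 tags in replicate 1 and 140 in replicate 2 in a cluster on chromosome 6 from 64344300 to 64344639. ZMYM2, a zinc finger protein of transcriptional repressor complexes, had 24 and 95 tags from 19496345 to 19496832 on chromosome 13. EXT1, a heparan sulfate polymerase, had 19 and 84 tags in its largest 5′UTR cluster on chromosome 8. Its 2 5′UTR clusters held 0.305% of the 54399 tags of the gene, so a cluster among the largest of this class was still a small part of its transcript's tags. The mitochondrial cluster from 6245 to 6599 had 57 and 167 tags. It carried no gene ID, so its 5′UTR label could not be set against a reference 5′UTR. It was 1 of 3 mitochondrial clusters with this label, which held 249 tags together.

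Among clusters with at least 50 tags, the 6 densest included ACTB and SLC38A1 beside BIRC3, ZC3H11A with 2 clusters, and the mitochondrial cluster. ACTB, which encodes β-actin, had 7 tags in replicate 1 and 45 in replicate 2 over 85 nt, or 612 tags per 1000 nt. SLC38A1, a transporter of neutral amino acids such as glutamine, had 12 and 63 tags over 129 nt, or 581 tags per 1000 nt.

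The 2 libraries were then compared over the 5′UTR clusters. Spearman's rho of the tags was 0.437 and Pearson's r of log2(tags + 1) was 0.680 across all 1067 clusters, which are not independent and share the same libraries. Among the 80 clusters with at least 30 tags rho was 0.636, and across the 591 genes, with the 5′UTR tags of each gene summed, it was 0.679. A two-sided binomial test, exact and adjusted by Benjamini-Hochberg over all clusters, set the split of every cluster against the pooled replicate 1 share of 22.3%. It compares libraries rather than conditions, and it called 26 of 233546 clusters, or 0.0111%. It called 0 of the 1067 5′UTR clusters. A cluster with few tags could not reach the adjusted threshold whatever its split, and only 437 of the 5′UTR clusters had at least 10 tags. For most of them the test could not decide. At an unadjusted p under 0.05 there were 37, of which 33 had more than their share in replicate 1, and a beta-binomial test also called 0, with 36 at an unadjusted p under 0.05. Over all clusters, 3.04% had an unadjusted p under 0.05, against 3.47% of the 5′UTR clusters. The table lists no cluster without a replicate 1 tag, so small clusters with an excess in replicate 2 could not be seen.

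The 5′UTR cluster with the smallest unadjusted p was in JAG1, a Notch ligand, with 15 tags in replicate 1 and 15 in replicate 2 (exact binomial p = 0.00131, adjusted p = 1). It was looked up after its value was seen. In the 12 largest 5′UTR clusters the replicate 1 share ran from 17.5% in a BIRC3 cluster to 25.4% in the mitochondrial one. Most of the 12 lay below the pooled share of 22.3%. The 7 BIRC3 clusters together had 19.2% (Wilson 95% interval 17.1% to 21.4%). Over all deposited clusters with at least 100 tags, of any label, the median share was 20.75%. Summed over all 5′UTR clusters the replicate 1 share was 23.3% (Wilson 95% interval 22.6% to 23.9%), which lay above that of CDS clusters, 21.7% (21.6% to 21.9%), and below that of intron clusters, 24.1% (24.1% to 24.2%). These intervals cover counting error only. Every listed cluster had at least 1 replicate 1 tag, which by construction raises the replicate 1 share of small clusters. The median cluster held 7 tags in introns, 8 in the 5′UTR and 9 in the CDS. Cluster size and region cannot be told apart in these shares.

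**Figure D2:**
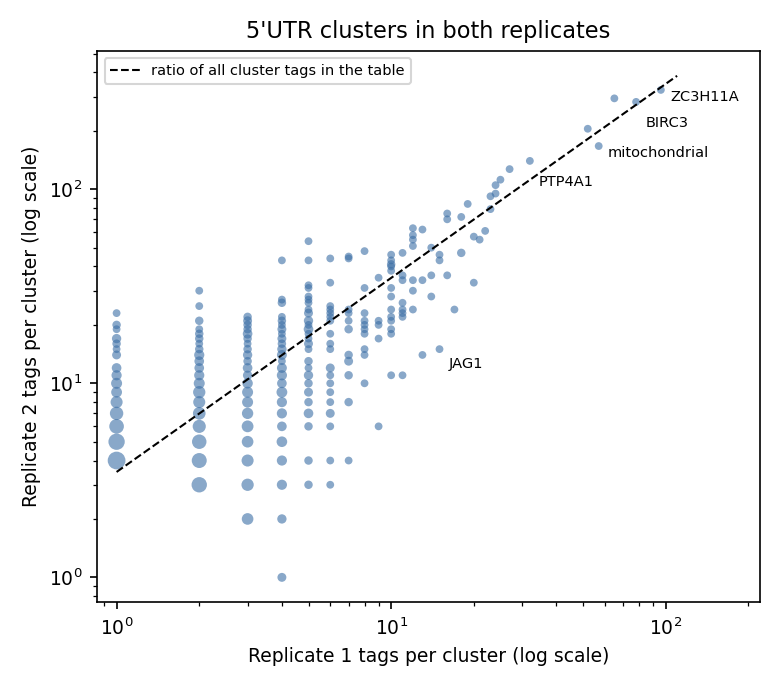
Replicate 1 against replicate 2 tags of the 1067 5′UTR clusters, both on log scales, with larger points where several clusters share a value. The dashed line is the ratio of all cluster tags in the table. Large clusters of ZC3H11A, BIRC3, PTP4A1 and the mitochondrial chromosome lie near the line, JAG1 with 15 tags in each lies below it, and the columns at the left are the clusters with few replicate 1 tags.

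Compared with other regions of the mRNA, 5′UTR clusters were few and lightly covered. At least 10 tags were reached by 41.0% of 5′UTR clusters, 47.8% of clusters that span the 5′UTR and CDS, 49.5% of CDS clusters, 64.4% of 3′UTR clusters and 28.7% of intron clusters. Median density was 106 tags per 1000 nt in the 5′UTR, 121 in the CDS, 153 in the 3′UTR and 97.6 in introns. The mean log2 tags per cluster was lower in the 5′UTR than in the CDS by -0.06 in replicate 1 and -0.21 in replicate 2 (-0.13 ± 0.10, SD, n = 2), which is little more than the spread between the replicates. The median cluster had 2 replicate 1 tags in both classes, and 6 replicate 2 tags in the 5′UTR against 7 in the CDS. Replicate 1 could thus show a difference only coarsely, and how much this adds to the SD was not tested. For the CDS, the log2 difference in tags per nt was -0.12 ± 0.10. Against the 3′UTR the differences were larger, -0.72 ± 0.14 in log2 tags and -0.49 ± 0.14 in log2 tags per nt. Against introns they were 0.28 ± 0.03 and 0.18 ± 0.03, and the sign was the same in both replicates in each of these comparisons. With 2 replicates an exact two-sided sign test cannot go below p = 0.5, so these differences are given as values with no test.

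At least 30 tags were reached by 7.50% of 5′UTR clusters and 10.0% of CDS clusters. Among the clusters that did so, which were chosen by their tags, the mean log2 difference in tags was 0.14, so the sign among the largest clusters was not that over all clusters. The share of 5′UTR clusters among all clusters was 0.460% at a minimum of 10 tags, 0.362% at 30 tags (Wilson 95% interval 0.291% to 0.450%) and 0.288% at 100 tags (0.169% to 0.493%). Over the same minimums the 3′UTR rose from 26.2% to 54.7% of clusters, and introns went from 30.1% to 6.76%. As the bar plots of tags by label show, 5′UTR clusters were close to clusters within 10 kb upstream of genes in these values, with 39.4% of the upstream clusters at 10 tags or more and a median of 107 tags per 1000 nt.

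**Figure D3:**
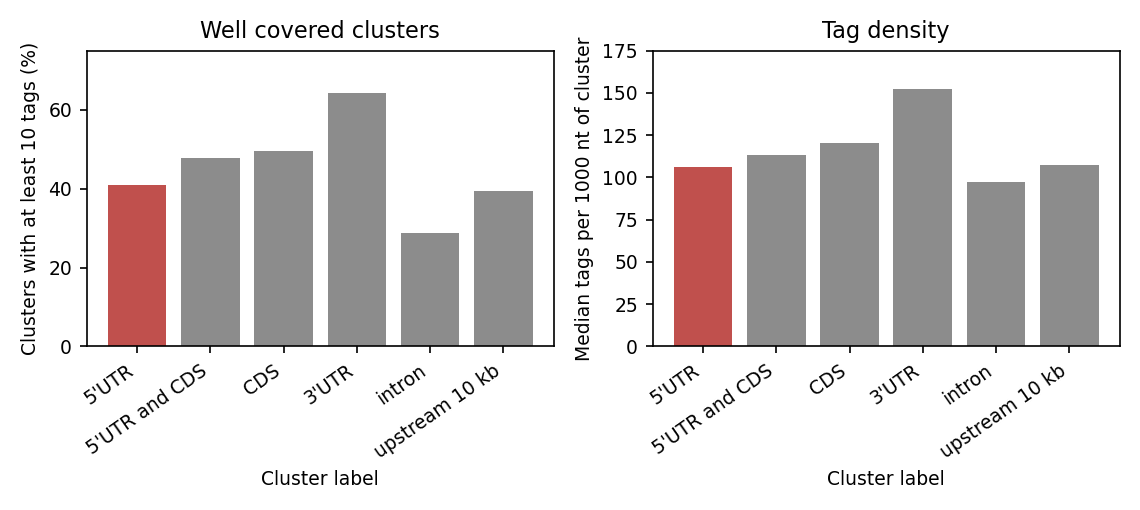
Share of clusters with at least 10 tags (left, in %) and median tags per 1000 nt of cluster (right) for 6 cluster labels, with both axes starting at 0. The 5′UTR bars, in red, stand at 41.0% and 106, below CDS and 3′UTR and above introns.

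The same comparison was made within genes, between clusters that carry the same gene ID. These need not come from the same transcript, as 210 of the 5′UTR clusters lay downstream of a CDS or 3′UTR cluster of their gene. Of 524 genes with both a 5′UTR and a 3′UTR cluster, the 5′UTR clusters were denser in 59 (11.3%), and the median log2 ratio of 5′UTR over 3′UTR tags per nt was -1.04 in replicate 1 and -1.26 in replicate 2. In 412 of these genes the 5′UTR was less dense in both replicates, and in 31 it was denser in both. Of 514 genes with a CDS cluster, the 5′UTR was denser in 168 (32.7%), with a median log2 ratio of -0.35 ± 0.10 (SD of the replicate medians, n = 2). Against introns, 232 of 433 genes had the denser 5′UTR, and the median log2 ratio was 0.03 ± 0.10, within the spread between the replicates. CPEB4, a regulator of poly(A) tail length, is an example, picked after its values were seen, of a gene with both regions well covered: its 4 5′UTR clusters had 55 and 179 tags in the replicates, at 362 tags per 1000 nt by the authors' total, and its 3′UTR clusters had 784 tags per 1000 nt.

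The 5′UTR clusters lay in 591 genes, 7.66% of the 7712 genes with any cluster, while 4 clusters had no gene ID. The number of genes was 108 without replicate 2, when at least 5 replicate 1 tags were asked for, and 1656 when every label that includes the 5′UTR was counted. A single 5′UTR cluster was found in 410 genes, 2 to 4 in 145 genes, and 5 or more in 36 genes. Those 36 genes held 27.1% of the 5′UTR clusters and 39.3% of the tags. Most of the 591 genes were bound elsewhere too. With combined labels counted, 544 had a cluster with a CDS label, 544 one with a 3′UTR label and 446 one with an intron label. These were 92.05%, 92.05% and 75.47% of them, against 59.09%, 81.31% and 56.93% of the other genes with a cluster. With a CDS, 3′UTR or intron label alone, the numbers were 514, 524 and 433 of the 591 genes. The other genes had fewer tags per gene, as given below. In 11 genes every cluster was a 5′UTR cluster, and these held 159 tags in all, at most 52 in 1 gene.

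Genes with a 5′UTR cluster had a median of 599 tags over all their clusters, against 81 in the 7121 other genes. The share of genes with a 5′UTR cluster was 1.28% at 5 to 29 tags per gene, 3.21% at 30 to 99, 6.80% at 100 to 299, 13.7% at 300 to 999 and 25.4% at 1000 tags or more. A gene's total includes its 5′UTR tags. The median 5′UTR share of a gene's tags was 2.21% ± 0.203 (SD of the replicate medians, n = 2), and in 485 of the 591 genes it was under 10%. Only 19 genes had over 50% of their tags in the 5′UTR, and 3 of these had at least 100 tags: IGIP, BIRC3 and EWSR1.

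IGIP, which encodes a small secreted protein that promotes IgA production by B cells, had the highest 5′UTR share among genes with at least 100 tags. Its 12 clusters held 41 tags in replicate 1 and 171 in replicate 2, 84.0% of the 250 tags of the gene, with 80.4% and 85.1% in the replicates. They covered 1621 nt within 2237 nt of chromosome 5, from 139485814 to 139488051, with 5 to 37 tags each and 74.6 to 207 tags per 1000 nt. EWSR1, an RNA-binding protein of the FET family, had 12 clusters with 39 and 130 tags, 56.3% of its 300 tags. CHD3, a chromatin remodelling ATPase, had 21 and 46 tags in 3 clusters, 42.2% of 154 tags, and here the replicates were further apart, at 53.8% and 39.3%. All 3 CHD3 clusters and all 12 EWSR1 clusters lay downstream of a CDS or 3′UTR cluster of the same gene. Entrez gene 64163, for which the table gives no symbol, had 13 and 61 tags in 2 clusters, 45.1% of 164 tags, and these lie in a region of chromosome 1 shared with TOR1AIP2.

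**Figure D4:**
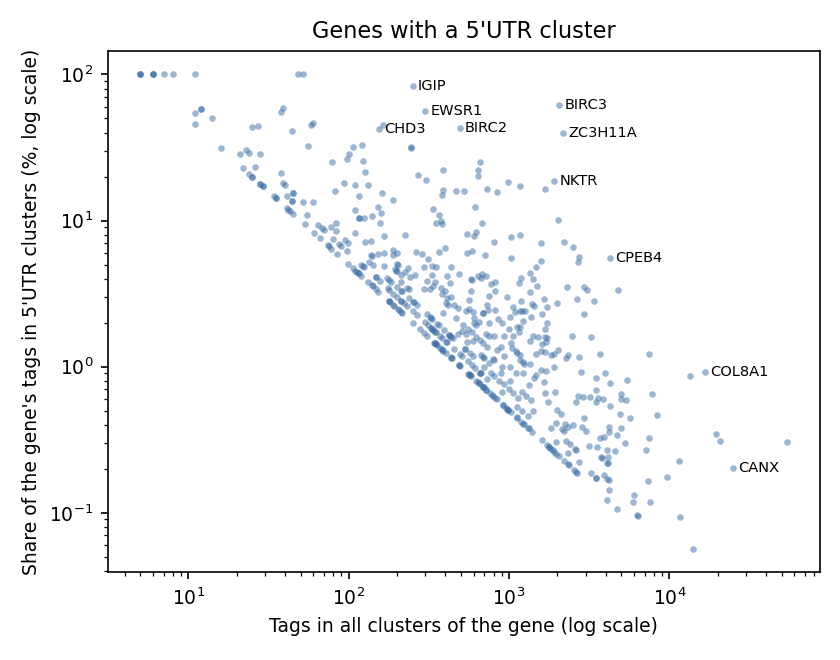
Share of a gene's tags that lie in its 5′UTR clusters (%, log scale) against all tags of the gene (log scale), 1 point for each of the 591 genes. The lower edge of the cloud is set by the minimum of 5 tags per cluster. IGIP at 84.0%, BIRC3 at 61.5%, EWSR1 at 56.3% and ZC3H11A at 40.0% stand above genes of similar tag number, and CANX with 24793 tags is at 0.202%.

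By number of 5′UTR clusters the order was different. NKTR, a cyclophilin-related protein with an arginine and serine rich domain, had 25 clusters with 89 tags in replicate 1 and 271 in replicate 2. They spread over 13831 nt of chromosome 3 from 42636017 to 42649848, with a run of 6 clusters over 908 nt that held 156 tags. No single NKTR cluster was large, with 5 to 47 tags each, and they held 18.6% of the 1913 tags of the gene, while 52 intron clusters held 53.7%. ARHGAP29, a GTPase-activating protein, had 15 clusters with 35 and 123 tags. In ARHGAP29 these were 7.09% of 2186 tags, so its many 5′UTR clusters were a small part of the gene.

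The label was compared with the reference annotation by gene, since the build of the table, hg18, has no genome or annotation here. Summed 5′UTR cluster length exceeded the longest 5′UTR of any GENCODE transcript in 40 of 579 genes with a reference 5′UTR, and these genes held 192 of the clusters and 18.1% of the 5′UTR tags. Among genes with 5 or more 5′UTR clusters it did so in 17 of 34. NKTR had 2516 nt of 5′UTR clusters against a longest reference 5′UTR of 246 nt, EWSR1 1237 nt against 328 nt and ARHGAP29 1323 nt against 251 nt. In BIRC3 the 2515 nt fitted within the reference 5′UTR, as they did in IGIP with 1621 nt of 2540 nt and in BIRC2 with 1021 nt of 1420 nt. Clusters labelled from several transcripts can add up to more than the longest single 5′UTR, and the study names UCSC and RefSeq genes, not GENCODE, as those its tags mapped to.

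Position within the gene was looked at next, against clusters labelled CDS alone or 3′UTR alone. In 1021 5′UTR clusters the same gene had a CDS or 3′UTR cluster to compare with, and 210 of them, in 71 genes, had at least 1 such cluster upstream. All 15 clusters of ARHGAP29, all 12 of EWSR1, all 10 of DHX15 (a helicase of spliceosome disassembly), all 9 of EPB41L2 (a membrane skeleton protein), all 8 of ZMYM2 and all 8 of SRSF11 were among them, whereas none of the BIRC3, BIRC2, IGIP, ZC3H11A or NKTR clusters was. Upstream clusters with a combined label were not counted. Among the combined labels, NKTR had 7 clusters labelled 5′UTR and 3′UTR, and ZC3H11A had 4 labelled CDS, 5′UTR and intron. Of the 40 genes whose clusters exceeded the longest reference 5′UTR, 19 were among these 71 genes, so the length and the position set apart different genes in part. DHX15 and EPB41L2 were singled out after their values were seen. The 210 clusters held 2460 tags and had a median of 8 tags and 105 tags per 1000 nt. In the other 811 clusters the medians were 8 tags and 109 tags per 1000 nt, so coverage differed little between the groups. Their replicate 1 shares were 24.3% (Wilson 95% interval 22.7% to 26.0%) and 22.9% (22.2% to 23.7%). Without the 210 clusters the 5′UTR held 0.298% of a replicate's tags.

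The strand of the named gene matched in nearly all clusters, which does not show that the right gene or transcript was named. Of 1050 clusters whose gene has a reference strand, 1041 lay on it. Of the 9 that did not, 7 were assigned to RNU6-71P, a U6 pseudogene that RefSeq places on chromosome 13, while the clusters lie on chromosome 6 among clusters of DST. These 7 clusters held 102 tags and were the only ones on another chromosome than the RefSeq gene, out of 1047 clusters with a matched ID. In 39 clusters (3.66%) the position fell within the clusters of another gene on the same strand, so the gene named there is uncertain.

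Genes with a 5′UTR cluster were next described by their reference 5′UTR, which was available for 574 of the 591 genes (97.1%). The median length of the canonical 5′UTR was 267 nt, against 146 nt in the other genes with a cluster and 159 nt in those with at least 100 tags. It had a median uridine content of 21.1% (T in the reference sequence) against 16.7%, and a median G and C content of 58.6% against 67.1%. At least 1 upstream AUG was present in 60.6% of these 5′UTRs and in 42.1% of those of the other genes, and a longer 5′UTR has more room for one. These are properties of a whole annotated 5′UTR and not of the cluster, whose own sequence was not read.

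Since tag number and length both move with the presence of a 5′UTR cluster, the shares were set out within classes of gene tags. At 1000 tags or more, 15.3% of genes with a 5′UTR under 100 nt had a 5′UTR cluster, 22.2% at 100 to 199 nt, 26.6% at 200 to 399 nt and 42.0% at 400 nt or more. At 100 to 299 tags the shares went from 3.0% to 13.0% over the same lengths. Uridine content showed the same order at 1000 tags or more, from 13.7% of genes with under 10% uridine to 46.5% of those with 25% or more. Among 5′UTRs of 400 nt or more, 1.72% of 58 genes with under 10% uridine had a cluster, against 41.6% of 166 genes with at least 25% uridine. Among 5′UTRs under 100 nt the shares were 2.49% and 2.86%. A cluster that ran on into the CDS carried a combined label, so a short 5′UTR had less room for a cluster labelled 5′UTR alone. Genes are not replicates, so these shares are given as a description with no test.

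**Figure D5:**
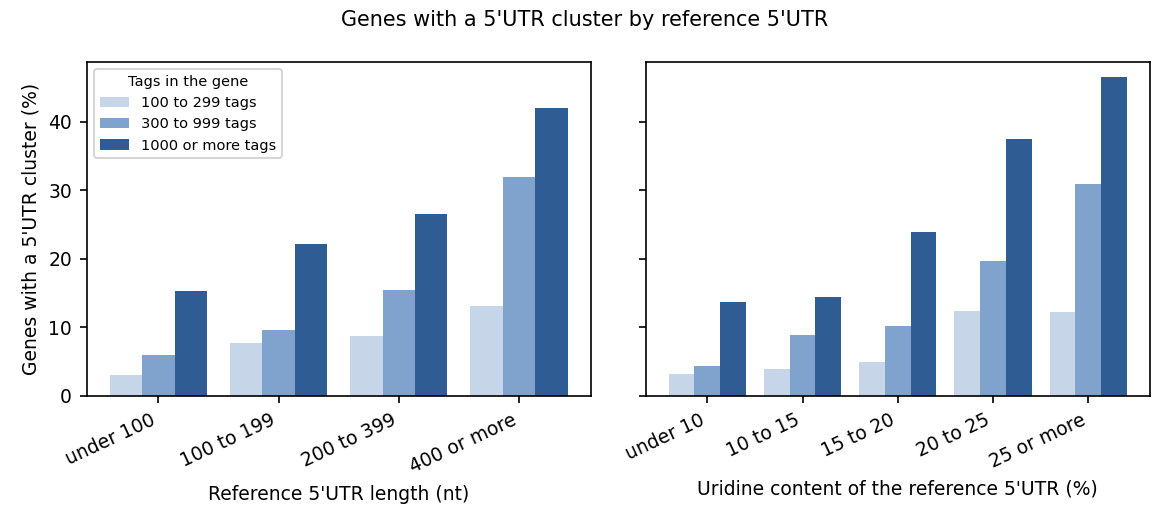
Share of genes with a 5′UTR cluster (%) by the length of the canonical reference 5′UTR in nt (left) and by its uridine content (right), for 3 classes of tags per gene. Within each class the share was higher at 400 nt or more than under 100 nt, and higher at 25% uridine or more than under 10%, reaching 42.0% and 46.5% in genes with at least 1000 tags.

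Gene groups with known 5′UTR elements were then counted against the 7.66% of all genes, or 13.4% of the 3807 genes with at least 100 tags, that had a 5′UTR cluster. Ribosomal protein mRNAs, which begin with an oligopyrimidine tract, had none: 49 of 79 had a cluster somewhere and 0 had a 5′UTR cluster. Their median was 25 tags per gene, their median reference 5′UTR was 45 nt, and 9 of them had at least 100 tags. At 5 to 29 tags per gene, 1.28% of all genes had a 5′UTR cluster. A cluster that ran on into the CDS carried a combined label, and the median 5′UTR cluster was 84 nt long. Few clusters in so short a 5′UTR could carry the 5′UTR label alone, so the 0 says little about binding there. Other mRNAs of the oligopyrimidine kind had one in 4 of 13 genes, with a median of 270 tags per gene. The largest was PABPC1, the cytoplasmic poly(A)-binding protein, with 25 tags in replicate 1 and 86 in replicate 2, followed by NPM1, a nucleolar chaperone, with 2 and 9 tags and TPT1 with 3 and 6 tags.

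Of mRNAs known for regulatory upstream open reading frames, 3 of 13 had a 5′UTR cluster. AZIN1, an inhibitor of antizyme in polyamine control, had 5 and 23 tags, PPP1R15B, a phosphatase subunit that reverses the integrated stress response, had 3 and 7, and AMD1, an enzyme of polyamine synthesis, had 2 and 4. Of mRNAs with a reported internal ribosome entry site, 3 of 14 had one. These were BIRC2, described above, EIF4G2 with 3 and 9 tags and MYC with 1 and 4 tags. Of 3 mRNAs with a 5′ iron-responsive element and any cluster, FTL, the ferritin light chain, had 4 and 11 tags in a cluster of 99 nt, 10.7% of its 140 tags. Except for BIRC2 and PABPC1 these genes had few 5′UTR tags, at a level where 1 replicate 1 tag more or less matters.

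Splicing factor and hnRNP mRNAs had a 5′UTR cluster in 12 of 33 genes, with a median of 558 tags per gene. SRSF11 had 42 and 138 tags, HNRNPC 32 and 123, and MBNL1, a regulator of alternative splicing, 26 and 70 in the replicates. All of the SRSF11 clusters lay downstream of a CDS or 3′UTR cluster of that gene, as given above. In MBNL1 the 5 clusters formed 1 stretch of 637 nt on chromosome 3. Matrix and adhesion mRNAs had one in 11 of 26 genes, with a median of 1270 tags per gene. COL8A1, a collagen chain, had 34 and 119 tags, THBS1, a matricellular glycoprotein, 14 and 36, and MMP1, interstitial collagenase, 11 and 22, and in each these were under 1% of the gene's tags. Both groups had many tags per gene, and the share of all genes with a 5′UTR cluster was 13.7% at 300 to 999 tags and 25.4% at 1000 or more.

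Secretory pathway mRNAs had a 5′UTR cluster in 5 of 34 genes. CANX, the chaperone calnexin, had 6 and 44 tags, 0.202% of its 24793 tags, DNAJB9 had 2 and 26, and MCFD2 4 and 21. Cytoskeletal mRNAs had one in 4 of 24 genes, led by ACTB, described above, ARPC2 with 4 and 9 tags and ACTN1 with 1 and 11. Immediate early mRNAs had one in 4 of 20 genes, with 3 and 8 tags in CYR61, 3 and 6 in DUSP6 and the 1 and 4 in MYC given above. Among chemokines and cytokines 1 of 9 had one, CXCL1 with 2 and 12 tags, and among cyclins, CDKs and their inhibitors 2 of 16, CDKN1A with 2 and 6 tags and CCNT2 with 1 and 4.

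Of 14 genes that the study followed up, all had clusters and 2 had a 5′UTR cluster, MBNL1 as above and SEC31A, a COPII coat subunit, with 1 tag in replicate 1 and 11 in replicate 2. DKK1, a secreted Wnt inhibitor with 20391 tags, and IL8, a neutrophil chemokine with 17183 tags, had 0 clusters in the 5′UTR alone. Each had 1 cluster whose combined label included the 5′UTR, with 583 and 194 tags. Clusters with a combined label are not among those described here.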

How the data were processed

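The authors crosslinked the cells with ultraviolet light, pulled down Flag-RBM47, tailed and reverse transcribed the RNA with barcoded primers, and grouped unique reads into clusters. The submitters' processing notes name Novoalign and hg18. In the deposited table a count of tags is given for each cluster, by replicate and as the authors' total, beside location labels. The lowest values were 1 tag per replicate and 5 in total, so column sums (999047 and 3489697) are not library depths. The total was below the sum of the replicates in 10.2% of the 5′UTR clusters.

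All 1067 clusters were used with no further filter. The members and gene lists were chosen with earlier results of these data known. Length is listed end minus start, and whether coordinates count from 0 or 1 is not known. Values per replicate are tags per 100000 table tags (n = 2). Whether the replicates are separate cultures is not stated, so their spread may be technical. The split test was an exact binomial test (scipy 1.17.1, Python 3.11.15), tested on simulated data. Only clusters with at least 100 tags were changed in that simulation, so it does not cover small clusters. Named were the 12 clusters with most tags, the 6 densest with at least 50 tags, the 6 genes with most clusters, the 6 with the highest share among those with at least 100 tags, every discordant cluster, the study's genes and up to 3 genes per list, and 1 gene that this rule names is not reported here. Symbols of 3 genes written as dates were read through the gene ID. Reference 5′UTRs came from GENCODE 44 on GRCh37 and were matched by symbol, with no coordinates compared. The RefSeq symbol of the gene ID was tried first, then the listed symbol and then its synonyms. KIAA0754 and MACF1 were given the same reference 5′UTR values, with 328 nt in each. No genome of hg18 was at hand, so no sequence was read.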

Additional observations from a re-analysis of the deposited data

How the results depend on the processing

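Each value was recomputed with tag minimums of 10 and 30, with every label that includes the 5′UTR, without each replicate, and with clusters whose replicate tags sum to the authors' total. The sets without clusters that have a CDS or 3′UTR cluster upstream, and without BIRC3 and ZC3H11A, were chosen after seeing the data. Of 56 recomputed values, 31 stayed within the limit set for them, 22 moved beyond it and 3 changed sign. The limit was the replicate SD or a 95% interval, and for counts of genes, which have neither, 1.5 times. Where it was the replicate SD, a value from a single replicate lies within it by arithmetic. Such values are among the 31 and do not show that a result is stable. The log2 difference in tags from the CDS was 0.00 at 10 tags and 0.14 at 30 tags, and the difference per nt 0.04 at 30 tags. With every label that includes the 5′UTR, the share of clusters was 1.49%, the share of tags 1.32%, the log2 difference in tags -0.03, the number of genes 1656, the median share of a gene's tags 3.77% and rho 0.50. At a minimum of 30 tags the share of clusters was 0.362%, of tags 0.246%, the genes 51, the median share 9.54% and rho 0.64, and at 10 tags the share of tags was 0.327%, the genes 247 and the median share 2.94%. Where the columns sum to the total, the share of tags was 0.401% and the median share 2.60%. Without clusters that have an upstream CDS or 3′UTR cluster, the shares of clusters and tags were 0.367% and 0.298%, and without BIRC3 and ZC3H11A the share of tags was 0.310%. Leaving out a replicate, and asking for 5 tags in the other, gave shares of clusters from 0.425% (without replicate 2) to 0.455% and gene numbers from 108 (without replicate 2) to 424. Without a replicate the share of tags ran from 0.345% to 0.366%, the log2 difference in tags from -0.21 to -0.06, the difference per nt from -0.20 to -0.05 and the median share from 2.07% to 2.35%. Pearson's r was 0.80 with a pseudocount of 10. The count of discordant clusters was 0 under all alternatives, with the limit for small clusters given above. The cause of these moves was not tested, beyond the smaller or larger sets that the tag minimum and the labels make by construction. Agreement between replicates has no value with a replicate left out. No paired analysis was possible because both replicates form 1 group. Depth limits single clusters, whose replicate 1 median was 2 tags.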
